A study of Mus musculus with 6 samples.

Results

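The 4 Id genes of the mouse, Id1, Id2, Id3 and Id4, were examined as binding targets of E2A in cultured neural stem cells. Their members were taken as every E2A peak that 5 deposited peak tables annotate to 1 of these gene symbols, at any distance from the gene. There were 132 such peaks among 91185 in all. Peaks of different tables that overlapped by at least 1 bp were joined into a site, which left 37 Id sites among 32693 sites in the genome. Each peak carries 1 gene symbol, which need not be that of the transcript it lies in, as at some Id4 sites. Whether a distant site acts on the named gene was not measured.

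Id proteins are small helix-loop-helix proteins that lack the basic, DNA-contacting region of the bHLH transcription factors. They dimerise with E proteins such as E12 and E47 and hold them off DNA, so that E proteins and their proneural bHLH partners cannot activate E-box genes. In the embryonic nervous system Id genes are known as targets of BMP and Notch signalling that keep progenitors undifferentiated. A peak of E2A at an Id gene therefore places an E protein at the gene of its own antagonist. E12 and E47 are the alternative splice products of the E2A gene, Tcf3.

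The series holds 6 samples: 3 wild-type E2A ChIP-seq libraries (wt replicates 1, 2 and 3), 1 library from E12 knockout cells (E12KO), 1 from E47 knockout cells (E47KO) and 1 wild-type input library, whose data were not analysed here. All came from strain C57BL/6J neural stem cells of E12.5 embryos, kept proliferating with 20 ng/ml each of EGF and FGF-2. The labels name no treatment. All ChIP libraries share fixation with 1.5 mM EGS for 20 min and 1% formaldehyde for 10 min, and the same antibody against E2A. How the knockout alleles were made, and whether libraries came from separate embryos or cultures, is not given in the sources used here, so the spread between wt replicates may be technical. Peak lists hold no expression values, and neither the cell type nor the genotype labels could be checked from them.

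The lists differ in length, from 6814 peaks in wt replicate 1 and 12772 in wt replicate 2 to 24194 in wt replicate 3, 25229 in E12KO and 22176 in E47KO, and read depth is unknown. Each knockout has 1 library, so no test between genotypes was possible and its values have no replicate error. Wt replicates 1, 2 and 3 listed 21, 19 and 34 peaks at Id genes, E12KO 28 and E47KO 30. Per 1000 listed peaks that was 3.08, 1.49 and 1.41 in the wt lists, 1.11 in E12KO and 1.35 in E47KO. The shortest list, wt replicate 1, therefore held the highest share of Id peaks, and E12KO, the longest, the lowest.

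Id genes carried sites that recurred between lists. A wt consensus site is one with a peak in at least 2 of the 3 wt lists. Of the 37 Id sites 23 were consensus sites (62.2%, exact Clopper-Pearson 95% interval 44.8 to 77.5, counting error only), beside 37.4% of the sites of any gene. Peaks in all 5 lists were found at 15 Id sites (40.5%, interval 24.8 to 57.9), beside 12.7%. Both intervals treat sites of the same gene as independent, although the consensus share ran from 36.4% at Id2 to 100% at Id1. Sites seen in a single list numbered 6 of 37 (16.2%), beside 28.4%, and sites seen in knockout lists and no wt list 2 of 37 (5.41%), beside 19.3%. Without wt replicate 3, the longest wt list, 15 of 34 Id sites were consensus sites and 9 were in knockout lists alone. Of the 30260 sites of any gene then left, 4275 were consensus sites and 15457 were in knockout lists alone. At the 23 consensus sites wt replicate 1 had a peak at 20, beside 45.2% of the consensus sites of any gene. Wt replicate 2 had one at 18, beside 89.7%, and wt replicate 3 at all 23, beside 99.6%. These shares are set side by side as a description, since the genes were chosen with results of these lists known.

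The genes differed in how their sites were placed. Id1 had 4 sites and Id3 had 9, the farthest of them 12.2 kb and 38.7 kb upstream of the start. Id2 had 11 sites, up to 379.5 kb upstream, and Id4 had 13, from 412.7 kb upstream to 122.8 kb downstream. Consensus sites numbered 4 of 4 at Id1, 4 of 11 at Id2, 7 of 9 at Id3 and 8 of 13 at Id4. Within 10 kb of the start Id3 had 4 of them, Id1 had 3, Id2 had 1 and Id4 had none. Over the sites of any gene 37.4% were consensus sites, and the share at Id2 (36.4%) was near that.

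**Figure D1:**
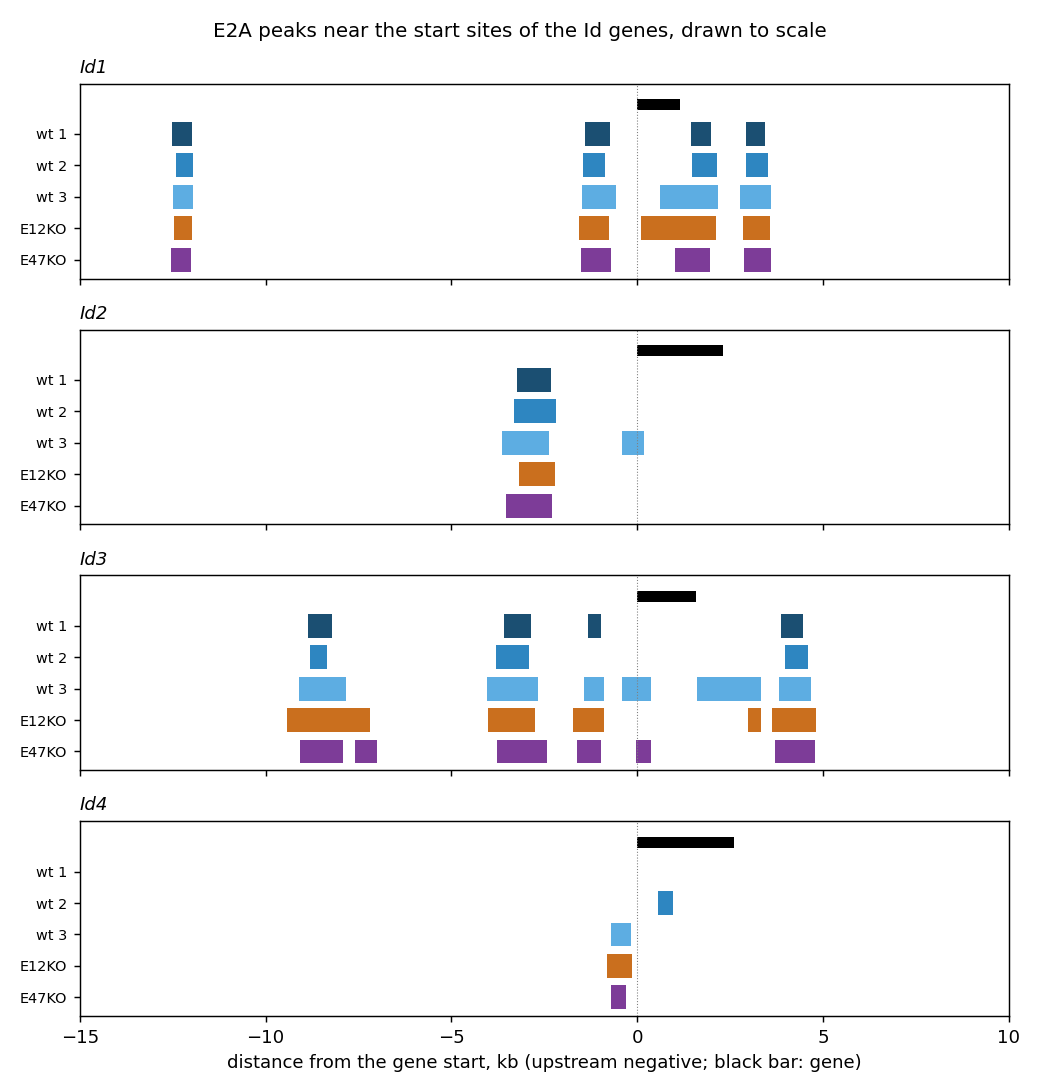
E2A peaks from 15 kb upstream to 10 kb downstream of each Id gene start, with distance from the start in kb on the horizontal axis and 1 row per peak list; bars are peaks to scale and black bars the genes. Id1 and Id3 carry several stacks of peaks present in all 5 rows, Id2 has 1 such stack and Id4 has none in this window.

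Id1 alone of the 4 genes had each of its sites, 4 in number, in all 5 lists. The gene lies on the plus strand of chromosome 2 (mm9) from 152562010 to 152563146. Its strongest site ran from 152560601 to 152561267 in wt replicate 1, with a summit 1134 bp upstream of the start. The authors' fold enrichment there was 45.2, the highest of any Id peak and the 54th of the 6814 peaks of that list by fold. Peak widths at this site were 667, 587 and 935 bp in wt replicates 1, 2 and 3, 812 bp in E12KO and 823 bp in E47KO. Both knockout widths lay inside the wt range, and the peak centres of the 5 lists fell within 131.5 bp of one another.

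A site with its summit 3169 bp downstream of the Id1 start, past the end of the gene, had a fold of 24.2. Its widths were 532, 603 and 831 bp in the wt lists, 708 bp in E12KO and 733 bp in E47KO, again within the wt range. An intergenic site 12.2 kb upstream (15.8-fold) was the most even in width of the 4, at 537, 451 and 538 bp in wt, 508 bp in E12KO and 543 bp in E47KO. Its centres lay within 81.0 bp.

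The remaining Id1 site varied most between lists. Its wt replicate 1 peak, 534 bp wide with a fold of 11.2, began 1452 bp from the start and so lay past the gene's end, and wt replicate 2 had a like peak of 676 bp. In wt replicate 3 the peak was 1562 bp wide and began 609 bp from the start, and in E12KO it was 2022 bp wide and began at 101 bp, covering most of the gene body. The E47KO peak was 942 bp wide, began at 1023 bp and was annotated to the 3′ UTR. Thus the gene body of Id1 was covered from near its start in E12KO alone, while the downstream part of the site was shared by all 5 lists.

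Id3 had the densest set of sites near its start. The gene runs on the plus strand of chromosome 4 from 135699737 to 135701307. Its strongest site, 135696159 to 135696874 in wt replicate 1 with a summit 3265 bp upstream of the start, had a fold of 34.7. Widths there were 716, 883 and 1383 bp in the wt lists, 1254 bp in E12KO and 1343 bp in E47KO. The knockout peaks were nearer in width to wt replicate 3 than to the shorter wt lists.

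A second upstream site of Id3, with its summit at 8506 bp, had a fold of 23.0 and was present in all 5 lists. The peaks were 659, 453 and 1262 bp wide in wt. In E12KO a single peak of 2242 bp covered it, the widest of all peaks at Id genes, and E47KO listed a peak of 1155 bp and beside it another of 587 bp. Downstream of the gene, the site with its summit at 4132 bp (8.63-fold) was in all 5 lists, at 610, 610 and 858 bp in wt, 1199 bp in E12KO and 1078 bp in E47KO. Both knockout widths exceeded all 3 wt widths at that site. Over the sites of any gene in all 5 lists the E12KO width did so at 61.6% and the E47KO width at 41.2%.

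The other consensus sites of Id3 were weaker or farther. One 1166 bp upstream of the start by its summit (8.15-fold) was in wt replicates 1 and 3 and both knockouts, while wt replicate 2 had no peak within 1180 bp of it. Intergenic sites lay 38.7 kb (15.8-fold) and 33.2 kb (6.05-fold) upstream in all 5 lists. Another at 26.6 kb was in wt replicates 2 and 3 and both knockouts but not in wt replicate 1. None of the 7 Id3 consensus sites lacked a peak in either knockout. Over all genes 3.4% of consensus sites had no E12KO peak and 6.43% no E47KO peak, so this is no result about Id3.

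A further Id3 site lay downstream of the gene and was not a consensus site. In wt replicate 3 it was 1723 bp wide, from 135701339 to 135703061, wider than 97.9% of that list's peaks or as wide. E12KO had a 352 bp peak at its distal end, and the nearest peaks of wt replicates 1 and 2 and of E47KO lay 523, 641 and 382 bp outside it. A peak of that width in 1 wt library was thus matched by a short peak in 1 of the other 4 lists.

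Id2 had a single consensus site near its start and several weak ones far upstream. The gene lies on the minus strand of chromosome 12 from 25778664 to 25780957. The near site, 25783291 to 25784183 in wt replicate 1 with a summit 2753 bp upstream of the start, had a fold of 35.8, the next highest after that of Id1. It was wide in all lists, at 893, 1142 and 1257 bp in wt, 992 bp in E12KO and 1220 bp in E47KO, with both knockouts inside the wt range. The 893 bp peak was the widest Id peak in wt replicate 1.

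The far upstream sites of Id2 recurred less. Of its 11 sites, all upstream, 7 lay more than 100 kb from the start, and 2 of these were consensus sites. The site 357.5 kb upstream was in all 5 lists at 7.06-fold, with widths of 314, 489 and 357 bp in wt, 404 bp in E12KO and 571 bp in E47KO. A site 379.5 kb upstream (6.80-fold) was in wt replicates 1 and 3 and in E12KO, and the nearest E47KO peak lay 21507 bp away. The site 28.6 kb upstream (5.34-fold) was in every list except wt replicate 2.

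Most other Id2 sites rested on 1 list. Single peaks were listed 166.5 kb upstream in wt replicate 1, 136.5 kb upstream in wt replicate 3 and 215.3 kb upstream in E47KO. The site 82.0 kb upstream was in wt replicate 3 and both knockouts, and the one 342.6 kb upstream in wt replicate 3 and E47KO. A site 154.9 kb upstream was found in both knockouts, at 353 bp in E12KO and 358 bp in E47KO, and in no wt list. It and the E47KO peak at 215.3 kb were the 2 Id sites without a wt peak, and both peaks were short of their lists' median widths of 616 and 550 bp.

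**Figure D2:**
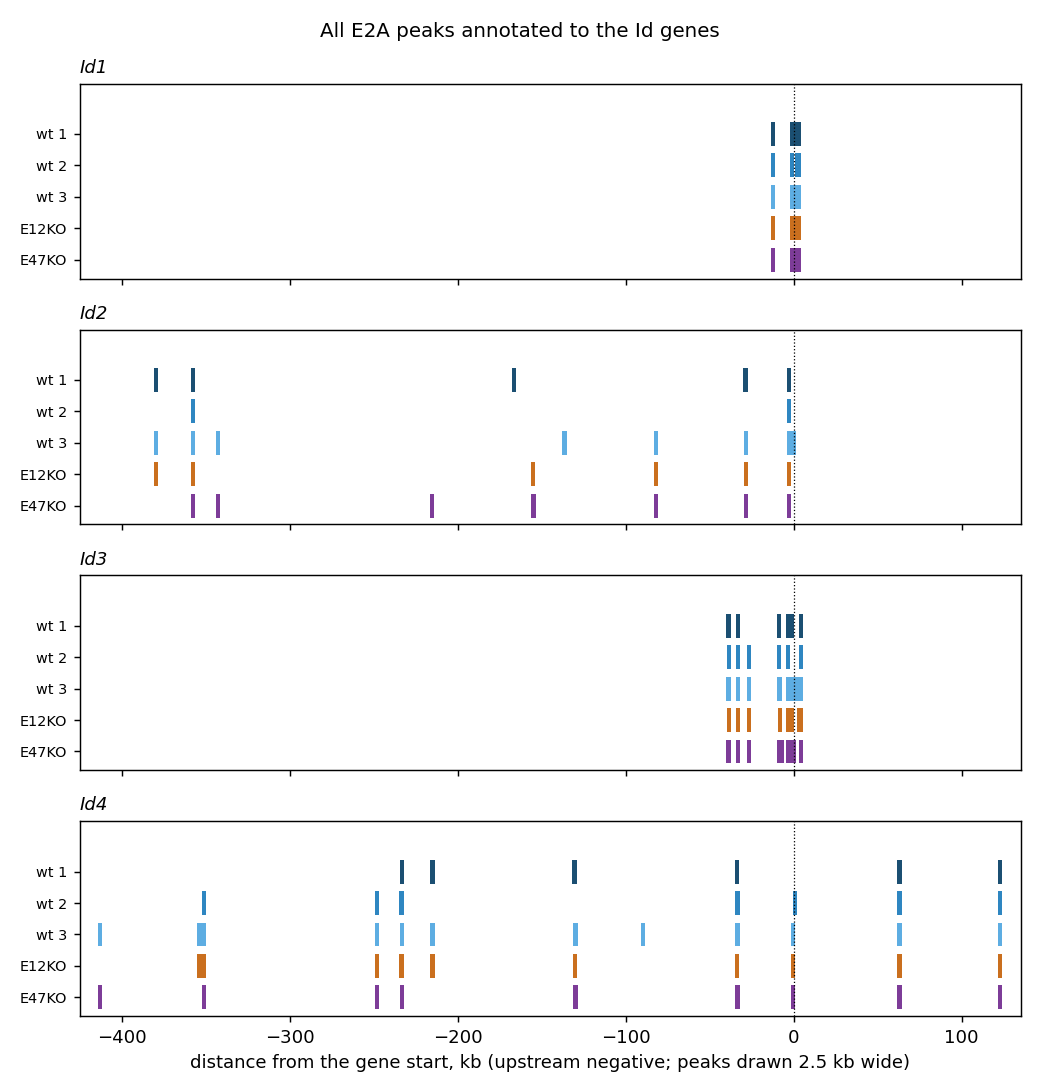
All peaks annotated to the Id genes by distance from the gene start in kb, 1 row per peak list, with each bar drawn at least 2.5 kb wide so that it can be seen. Sites of Id1 and Id3 lie within 38.7 kb of the start, those of Id2 extend only upstream, and those of Id4 run from 412.7 kb upstream to 122.8 kb downstream.

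Id4 had the most sites and the most consensus sites of the 4 genes, and all 8 of the latter lay away from its start. The gene lies on the plus strand of chromosome 13 from 48356796 to 48359405. Its strongest peak was intergenic, 48419438 to 48420063 in wt replicate 1 with its summit 62984 bp downstream of the start, at 21.6-fold. The widths there were 626, 753 and 960 bp in wt, 905 bp in E12KO and 904 bp in E47KO, and the centres of the 5 lists agreed within 36.5 bp, the tightest of the Id sites in all 5 lists.

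A site 33506 bp upstream of Id4 by its summit had a fold of 17.4 and lay in an intron of the transcript uc007qib.1. It was 402, 520 and 581 bp wide in wt and 604 bp in E47KO but 1218 bp in E12KO. A downstream site at 122.8 kb (15.3-fold) was in all 5 lists, at 561, 235 and 444 bp in wt, 425 bp in E12KO and 402 bp in E47KO. The last of the Id4 sites in all 5 lists, 233.4 kb upstream, was weaker at 6.07-fold.

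Some Id4 sites were broad without being listed in wt replicate 1. The site 351.0 kb upstream carried the symbol Id4 but was annotated to a 5′ UTR, whose transcript is not named. It was 825 and 1448 bp wide in wt replicates 2 and 3, 1291 bp in E12KO and 1065 bp in E47KO. That at 248.1 kb was 784 and 1177 bp wide in those wt lists, 975 bp in E12KO and 802 bp in E47KO. The nearest wt replicate 1 peaks lay 116746 and 13933 bp away. A site 130 kb upstream (4.82-fold in wt replicate 1) was split into 2 peaks in wt replicate 3 and in E47KO and covered by a single 1690 bp peak in E12KO.

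One Id4 consensus site was missing in E47KO. It lay 215.0 kb upstream, in exon 2 of uc007qib.1, and was in wt replicates 1 and 3 and E12KO with widths of 323, 273 and 232 bp. The nearest E47KO peak was 17815 bp away and the nearest wt replicate 2 peak 18036 bp away. Hence 1 wt library also had no peak there. The remaining far sites were short or in few lists: 1 at 412.7 kb in wt replicate 3 and E47KO, 1 at 353.7 kb in wt replicate 3 and E12KO, and 1 at 89.8 kb in wt replicate 3.

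Few peaks lay over the start sites themselves, and peaks at or near the starts of Id2, Id3 and Id4 varied between lists. Wt replicate 3 alone had a peak over the Id2 start, from 25780787 to 25781368. Over the Id3 start, wt replicate 3 had a 775 bp peak and E47KO a 398 bp peak, both ending at 135700112, while the nearest E12KO peak lay 494 bp from the site. At Id4, peaks of 542, 669 and 400 bp in wt replicate 3, E12KO and E47KO ended 166, 153 and 307 bp upstream of the start. Wt replicate 2 instead had a 403 bp peak from 567 bp downstream of it. No Id start carried a wt consensus site over it, and wt replicates 1 and 2 and E12KO had no peak over any of them. Over all genes, 36.7% of the sites that cover a start were consensus sites, beside 0 of 2 here, too few to compare.

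The 250 bases before the starts of Id2, Id3 and Id4 are shown because these peaks fall on or beside them. They are RefSeq sequences of build GRCm38.p6 on the gene's strand, 5′ to 3′, ending at the base before the start, with E-boxes (CANNTG, which reads the same on both strands) in capitals. They lie on chromosome 12 from 25096093 to 25096342 (minus strand), chromosome 4 from 136143572 to 136143821 (plus) and chromosome 13 from 48260866 to 48261115 (plus).
Id2: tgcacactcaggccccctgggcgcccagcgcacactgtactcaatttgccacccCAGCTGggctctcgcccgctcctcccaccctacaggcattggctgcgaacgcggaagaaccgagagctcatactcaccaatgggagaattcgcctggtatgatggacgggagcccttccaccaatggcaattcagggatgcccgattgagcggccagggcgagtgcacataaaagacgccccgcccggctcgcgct
Id3: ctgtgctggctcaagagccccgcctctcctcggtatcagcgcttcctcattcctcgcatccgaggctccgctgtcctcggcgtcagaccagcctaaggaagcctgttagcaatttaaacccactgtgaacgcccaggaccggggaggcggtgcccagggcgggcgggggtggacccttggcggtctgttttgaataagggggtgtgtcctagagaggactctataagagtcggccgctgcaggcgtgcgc
Id4: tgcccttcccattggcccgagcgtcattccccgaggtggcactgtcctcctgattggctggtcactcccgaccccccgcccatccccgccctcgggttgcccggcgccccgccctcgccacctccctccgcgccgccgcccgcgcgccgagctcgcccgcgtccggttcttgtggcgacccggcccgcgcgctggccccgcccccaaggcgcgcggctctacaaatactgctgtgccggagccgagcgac
The Id2 window holds 1 E-box, CAGCTG, whose first base is at position -196 from the start, and the other windows hold none. Over 32817 promoter windows of this length 21733 (66.2%) hold a CANNTG, 4268 a CAGCTG and 5652 (17.2%) a CAGGTG or its reverse complement CACCTG, the latter forms being cases of CANNTG.

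Counted from the gene start, the wt replicate 3 peaks spanned all 250 bases at Id2 and at Id3, and the E47KO peak the last 22 of them at Id3. At Id4 wt replicate 3 spanned 85 and E12KO 98 of the bases farthest from the start, and E47KO none. The peaks are on mm9 and the sequences on GRCm38.p6, so this match is by distance from the start and not by coordinates. The gene models have the same length in both builds for Id2 (2294 bp) and Id3 (1571 bp) but not for Id4 (2610 and 4913 bp), where the start may differ. An absent E-box says nothing of the sites farther away, whose sequence was not examined here.

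Peak strength could be read in wt replicate 1, the list that carries scores per peak. Fold enrichment is the ratio of ChIP signal to the peak caller's background, and these scores are the authors'. The 21 Id peaks had folds from 4.82 to 45.2 with a median of 11.2, beside a median of 7.48 over the list. Of these 14 were above the list median and 6 were among the top 10% of 681 peaks by −log10 q, with none among the top 1%. Each gene had a leading site, at 45.2-fold for Id1, 35.8 for Id2, 34.7 for Id3 and 21.6 for Id4. With no score in the other lists the order of these values has no replicate check.

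**Figure D3:**
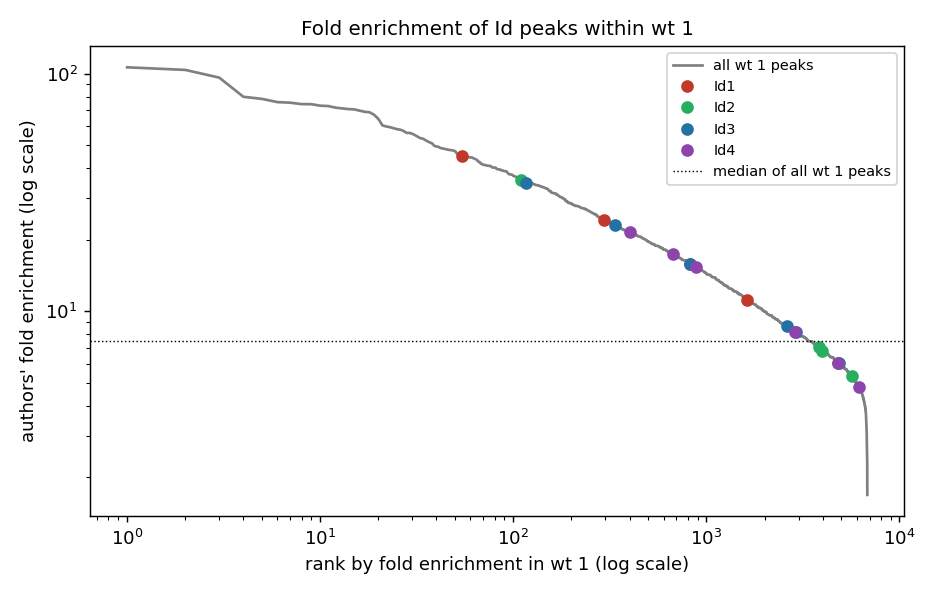
The authors' fold enrichment of every wt replicate 1 peak against its rank in that list, both on log axes, with Id peaks as coloured points and the list median of 7.48 as a dotted line. The leading peaks of Id1, Id2 and Id3 hold ranks 54, 109 and 117 of 6814, and that of Id4 rank 400; points with equal fold, such as those of Id1 and Id3 at 15.8, lie on top of each other.

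Stronger peaks of wt replicate 1 were more often at sites in all 5 lists, over the whole list as among its 21 Id peaks. Of the 14 Id peaks above the list's median fold 12 were at sites in all 5 lists, beside 76.1% of such peaks of any gene. Of the 7 at or below the median 3 were, beside 50.8%. These shares are near those of the list and are no result about the Id genes. The 6 Id peaks outside the sites in all 5 lists had folds from 4.82 to 8.19 and widths from 280 to 348 bp.

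Recurrence by distance differed between the genes. Within 100 kb of the start 15 of 22 Id sites were consensus sites (68.2%) and 12 were in all 5 lists, beside 37.4% and 3351 of 26799 for the sites of any gene within that distance. Beyond 100 kb, where Id2 and Id4 alone had sites, 8 of 15 were consensus sites (53.3%) and 3 were in all 5 lists, beside 37.3% and 802 of 5894. Id1 and Id3 had 4 of 4 and 5 of 9 sites in all 5 lists, each within 100 kb. Id2 had 1 of 4 within that distance and 1 of 7 beyond it. Id4 had 2 of 5 within and 2 of 8 beyond, and its consensus sites numbered 2 of 5 within and 6 of 8 beyond.

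Nearly all Id consensus sites had a peak in the knockouts. E12KO had one at each of the 23, so 0 were missing (exact 95% interval up to 14.8, counting error only; the limit of 3 counts in 23 is 13%), beside 3.4% of the consensus sites of any gene. E47KO lacked 2 of the 23 (8.70%, exact 95% interval 1.07 to 28.04), the Id2 site at 379.5 kb and the Id4 site at 215.0 kb, beside 6.43%. Both counts are near the share over all genes and are no result about the Id genes. Their intervals also treat sites of the same gene as independent. The E47KO count was 0 without wt replicate 1 and 0 without wt replicate 3, since these sites then no longer met the consensus rule. Both lacked a peak in wt replicate 2 too.

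Peak widths gave another view of the knockouts at the 15 Id sites in all 5 lists. Width depends on how each list was made and is no measure of binding strength between lists. The Id medians were 561, 587 and 858 bp in wt replicates 1, 2 and 3, 905 bp in E12KO and 879 bp in E47KO, where a site's widest peak was taken. Over all 4153 sites in all 5 lists the medians were 473, 560, 847, 937 and 821 bp in the same order. The E12KO width exceeded all 3 wt widths at 4 of the 15 Id sites, beside 61.6% of the sites of any gene, and it was within the wt range at the other 11. The E47KO width exceeded them at 5 of 15, beside 41.2%, and was within the range at 10. None of these 15 sites had a knockout width below the wt range. Over all genes 0.53% of the sites in all 5 lists did in E12KO and 2.84% in E47KO, so this is no result about the Id genes. Among the other consensus sites, E12KO was below the widths of the wt lists with a peak at the Id3 site 26.6 kb upstream (258 bp, against 520 and 275 bp) and at the Id4 site 215.0 kb upstream (232 bp, against 323 and 273 bp). E12KO was the wider of the knockouts at 7 of 15, beside 68.7%.

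**Figure D4:**
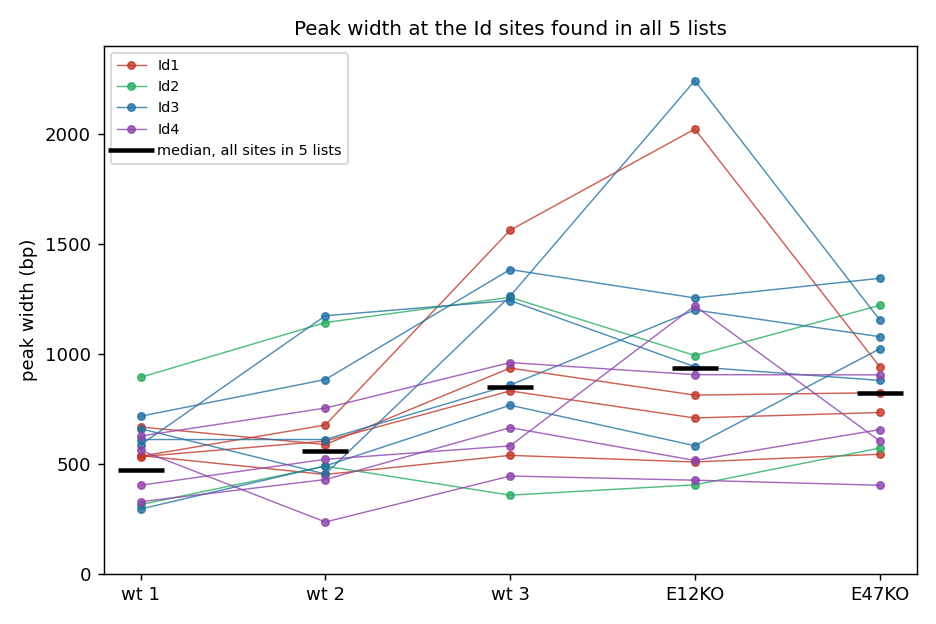
Peak width in bp (vertical axis, from 0) in each of the 5 lists at the 15 Id sites found in all of them, 1 line per site coloured by gene, with black bars for the median of all 4153 sites in 5 lists. The Id1 site whose E12KO peak covers most of the gene body stands out in E12KO at 2022 bp. So does the Id3 site 8.2 kb upstream, with its summit at 8506 bp, at 2242 bp.

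The centres of the 5 lists spanned a median of 131.5 bp at the 15 Id sites, from 36.5 to 688 bp, beside a median of 170.5 bp over all sites in 5 lists. Joining peaks that overlap bounds this span. The largest span was at the Id1 site whose E12KO peak covers most of the gene body. There the lists differed in how far the peak reached into the gene.

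The number of sites near a start set Id3 and Id1 apart from most genes. Of 21900 protein-coding genes 16.7% had a consensus site within 10 kb of a start. At least 4 of them, as at Id3, were found at 33 genes (0.151%), and at least 3, as at Id1, at 151 genes (0.689%). With no distance limit 117 genes (0.534%) had at least the 8 of Id4 and 708 (3.23%) at least the 4 of Id1 and of Id2. These counts take no account of the spacing between genes, which limits how far a peak can be and still be annotated to a gene.

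**Figure D5:**
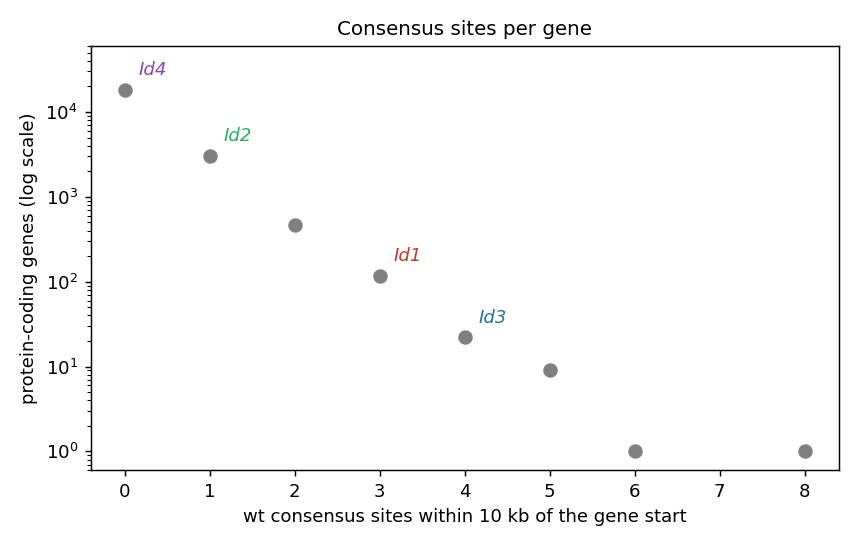
Number of protein-coding genes (log axis) with a given number of wt consensus sites within 10 kb of the gene start, with the Id genes marked. Id3 shares its count of 4 with few other genes, Id1 has 3, Id2 has 1 and Id4 has 0.

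The E protein genes, the Hes and Hey genes and the BMP pathway genes were compared by the same count. Of all protein-coding genes 16.7% had a consensus site within 10 kb. Of the E proteins, which Id proteins bind, 2 of 3 had a consensus site within 10 kb, Tcf12 with 4 and Tcf4 with 3. Tcf3, which encodes E2A, had 0. Of the Hes and Hey genes, bHLH factors of which several act downstream of Notch, 5 of 8 had one. They were led by Hes1 with 4 and by Hes5 and Heyl with 3 each. The median number within 10 kb was 2.0 for the Id genes, 3.0 for the E proteins, 1.5 for the Hes and Hey genes and 0 over all protein-coding genes.

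BMP ligands, receptors, Smad proteins and antagonists, which act on Id transcription, had a consensus site within 10 kb at 7 of 20 genes. The share over all protein-coding genes was 16.7%. The type I receptor genes Bmpr1b and Bmpr1a had 3 and 2, and the ligand gene Bmp7 had 2. The median number was 0 in that list, as over all genes.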

How the data were processed

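E2A ChIP-seq peak lists of 3 wt, 1 E12KO and 1 E47KO library were analysed, grouped by the labels. The genome build mm9 and the tools MACS2 2.1.0, Picard 1.119 and BWA 0.7.13 are named in the submitters' processing notes. Their settings were not given in the sources used. The lists were deposited per library, and their names carry different false discovery rate labels for wt replicate 1 and the others. For wt replicate 1 alone, the deposited table gives −log10 p and −log10 q, a fold enrichment (ratio) and the pileup signal of each peak; its lowest −log10 q was 2.07. The deposited tables give peak and gene positions in bp, read as 1-based. For comparisons with all genes, distances were recomputed from the start site to the nearest peak edge, since wt replicate 1 uses another edge. Site positions in kb run from the start to the middle of the joined site. Those given by a summit run to the wt replicate 1 summit.

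Overlapping peaks (1 bp) were joined across lists with Python 3.11.15 and pandas 2.3.3, in code tested on simulated peaks. Gene classes came from a RefSeq table (GRCm38.p6), matched by gene ID. The 4 genes were named with every site. From each other list up to 3 members with the most sites were named. The result of 1 further list is not reported here, for a reason unrelated to its values. Members and lists were chosen with earlier results of these data known. Alternatives were an overlap of 50% of the shorter peak, merging within 500 bp, limits of 10 and 100 kb, no peaks under 150 bp, −log10 q of at least 10 in wt replicate 1, 3 of 3 wt lists, and leaving out each wt replicate. RefSeq promoter sequences were matched for Id2, Id3 and Id4, and none was printed for Id1.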

Additional observations from a re-analysis of the deposited data

How the results depend on the processing

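Counts of Id sites changed little with how peaks were joined. With an overlap of 50% of the shorter peak or without peaks under 150 bp each count was the same, merging within 500 bp gave 35 sites in place of 37, and −log10 q of at least 10 in wt replicate 1 gave 21 consensus sites and 13 in all 5 lists. The distance limit moved them. Within 10 kb there were 13 sites, 8 consensus sites and 7 in all 5 lists, with 0 consensus sites lacking E47KO and 0 sites in knockout lists alone. Within 100 kb there were 22 sites and 15 consensus sites, with 0 and 0 for the same counts. Requiring all 3 wt lists gave 15 consensus sites, 0 of them lacking E47KO. Leaving out 1 wt replicate at a time gave 15 to 20 consensus sites, 0 to 2 lacking E47KO and 2 to 9 sites in knockout lists alone. The values of 15 and 9 came without wt replicate 3, and the value of 0 without wt replicate 1 or wt replicate 3. With 1 wt list gone, the rule of at least 2 lists needs both others. No consensus site lacked E12KO under any of the 10 settings. No paired analysis was possible because each knockout has 1 library and the results come from no test. Read depth is unknown, so a missing peak was not detected at the list's threshold, which is not absence of binding.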

Other observations

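Further E2A sites lay within 100 kb of the Id starts but were annotated to neighbouring genes. Around Id3 there were 8 such sites, 5 of them consensus sites, beside the 9 annotated to Id3. They included the promoter of E2f2, a cell cycle transcription factor gene, 28.8 kb downstream of the Id3 start and in all 5 lists, and an intron of Asap3 80.5 kb downstream, also in all 5. Around Id1 there were 7, 4 of them consensus sites, with a site in a 3′ UTR annotated to Mcts2 30 kb upstream in all 5 lists. Id2 had 1, in an intron of Kidins220 61.9 kb downstream and in all 5 lists, and Id4 had none, so each of its 5 sites in that window carried its own name. Over all genes 37.4% of sites were consensus sites, so a share above that was not particular to the sites named for Id genes.

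Consensus sites without a peak in either knockout were found beside 2 Id genes. A site annotated to Cox4i2 lay 28.6 kb downstream of the Id1 start and was in wt replicates 2 and 3. Another in intron 1 of E2f2 lay 34.0 kb downstream of the Id3 start and was in wt replicates 1 and 3. Over all genes 230 of 12231 consensus sites (1.88%) had a peak in neither knockout. The neighbouring sites named here were chosen after their values were seen.

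Some Id peaks of wt replicate 1 carry the same scores. The Id1 peak 12.2 kb upstream and the Id3 peak 38.7 kb upstream both have a pileup of 56 and a fold of 15.8, as do 5 peaks of that list in all. The Id2 peak 166.5 kb upstream and the Id3 peak 33.2 kb upstream both have a pileup of 16 and a fold of 6.05, shared by 126 peaks.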
